A study of Homo sapiens with 6 samples.

Results

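The 10 genes described here encode lamins, other proteins of the nuclear envelope and the HMGB chromatin proteins, and they were followed in pancreatic cancer cells in which retinoic acid receptor gamma (RARγ) was inhibited. The genes were chosen by name, with earlier results of these data known: the B-type lamins LMNB1 and LMNB2, the A-type lamin LMNA, the inner nuclear membrane proteins LBR, TMPO and EMD, the SUN proteins SUN1 and SUN2, and HMGB1 and HMGB2. Each symbol had 1 entry, so 10 of the 53826 entries of the expression tables were used. The established lines PK-1 and Panc-1, both from human pancreatic ductal adenocarcinoma, were left as Control or given RARγi-1 (LY2955303) or RARγi-2 (MM11253), RARγ antagonists of different structure, for 24 h. RNA of each of these 6 conditions was sequenced as 1 library. The titles of the libraries name the inhibitor, but a treatment entry of both RARγi-2 libraries reads RARγi-1, and the libraries were assigned by title. The doses used for the sequencing and the vehicle of the controls are not given in the sources used here, so values for RARγi-1 and RARγi-2 stand side by side and the compounds were not compared.

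Lamins are intermediate filament proteins that form a mesh, the nuclear lamina, under the inner nuclear membrane. B-type lamins are made in nearly all cells and stay attached to the membrane by a lipid anchor, whereas lamins A and C, both encoded by LMNA, are typical of differentiated cells and of stiff nuclei. LBR and the LAP2 proteins encoded by TMPO tie the lamina and chromatin to the membrane, and SUN proteins join the lamina to the cytoskeleton through the LINC complex. HMGB1 and HMGB2 are abundant proteins that bend DNA, and HMGB1 also acts as an alarm signal once it leaves the cell. Low lamin B1 and loss of nuclear HMGB proteins are often used as marks of cells that have left the cell cycle for good.

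Sequences upstream of 3 of these genes are shown because their RNA followed different courses, LMNB1 and TMPO falling in both lines and LMNA in 1 of them. All 3 come from RefSeq (GRCh38.p14), on the plus strand, 5′ to 3′. The LMNB1 stretch is chr5:126776373-126776622, the LMNA stretch chr1:156082323-156082572 and the TMPO stretch chr12:98515323-98515511. For LMNB1 and LMNA this is the window of 250 bases before 1 RefSeq start, and for TMPO the 189 bases of such a window that precede the annotated gene. Each stretch comes from the window listed first for its gene, and further windows of these genes are not printed. Capitals mark letters of the E2F site or of the CCAAT box. Which stretches show capitals depends on this choice of window, so the stretches were not compared.
LMNB1: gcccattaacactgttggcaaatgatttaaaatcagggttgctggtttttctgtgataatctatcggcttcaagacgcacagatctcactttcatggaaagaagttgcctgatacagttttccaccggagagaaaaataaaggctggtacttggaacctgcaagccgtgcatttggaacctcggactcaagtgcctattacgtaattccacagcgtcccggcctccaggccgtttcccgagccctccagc
LMNA: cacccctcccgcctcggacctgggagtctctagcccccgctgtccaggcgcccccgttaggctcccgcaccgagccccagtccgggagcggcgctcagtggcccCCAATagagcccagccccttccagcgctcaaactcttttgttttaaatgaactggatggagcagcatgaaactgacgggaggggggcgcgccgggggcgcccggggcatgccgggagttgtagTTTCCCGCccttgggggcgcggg
TMPO: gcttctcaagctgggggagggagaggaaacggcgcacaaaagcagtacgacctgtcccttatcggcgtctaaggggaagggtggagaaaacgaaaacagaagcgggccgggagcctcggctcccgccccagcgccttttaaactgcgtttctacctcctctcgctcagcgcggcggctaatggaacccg

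The RefSeq table held 16 such windows for 8 of the 10 genes. SUN1 and HMGB2 had no entry. Searched on both strands, the E2F site (TTTCCCGC, TTTCGCGC, TTTGCCGC or TTTGGCGC) was found in 1 of the 16 windows, of LMNA, 23 to 16 bases before the start, and in 2.79% of all 35116 windows. The CCAAT box (CCAAT) was found in 8 of the 16 windows, which belong to 6 genes, and in 32.0% of all windows. In TMPO it lay 47 to 43 and 15 to 11 bases before the start, downstream of the stretch printed above, and in LMNB1 only the other window held it. The CHR element (TTTGAA or TTCGAA) was found in 3 of the 16 windows, of LMNB2, SUN2 and HMGB1, and in 14.3% of all windows, and no window of these genes matched the DR5 retinoic acid response element, which 0.074% of all windows hold. A match gives letters in a window and not a bound site.

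Expression was deposited as log2 of TPM, a transcript abundance corrected for gene length and for library size. Values under 1 TPM had been raised to 1 TPM, called the floor here, and 74.6% to 75.6% of entries per library lay there. All 10 genes were above the floor in every library, the lowest value being 6.08 TPM. TPM keeps no depth, so the precision of counting is unknown. Fold changes are differences in log2 (TPM + 1), treated minus Control of the same line. The added 1 TPM understates changes of low values. A gene is said to have risen or fallen where it passed 2-fold. No difference could be checked against replicates, since each condition has 1 library, and no p-values were computed. As a measure of variation, the difference between both treated libraries of a line was taken over all entries of at least 5 TPM. It gave a spread of a single library of 0.29 on the log2 scale for PK-1 and 0.23 for Panc-1, hence 0.41 and 0.32 for a fold change. This spread also holds real differences between the inhibitors and leaves out variation that both treated libraries share against their common Control. In bulk RNA, fewer cells in a given state and less RNA per cell cannot be told apart.

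Epithelial markers fitted the lines in part. KRT8, KRT18, KRT19, EPCAM and CDH1 were all above the floor in PK-1. In the 3 Panc-1 libraries CDH1 was at the floor and the other 4 were above it. Of the mesenchymal markers, VIM was at 3962 to 6291 TPM in Panc-1 and at 41.7 to 140 TPM in PK-1. CDH2 and ZEB1 were at the floor in PK-1 and at 2.63 to 14.5 TPM in Panc-1. FN1 went the other way, at 1.92 to 5.15 TPM in PK-1 and at the floor in Panc-1. All 3 fibroblast and all 3 endothelial markers were at the floor in the 6 libraries, as were the leukocyte markers PTPRC and CD3E, and CD14 was just above it in 1 library.

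Of the 10 genes, 5 fell past 2-fold in PK-1 with RARγi-1, where 5.2% of the 12412 entries of at least 5 TPM in a library did so. With RARγi-2, 6 of 10 fell in PK-1 against 13.5% of entries. In Panc-1, 4 fell with RARγi-1 against 6.51%, and 7 with RARγi-2 against 12.0%. None of the 10 rose past 2-fold, whereas in PK-1 9.91% of entries did so with RARγi-1 and 12.9% with RARγi-2, and for Panc-1 the shares were 7.86% and 9.02%. LMNB1 and TMPO fell in all 4 comparisons, which 2.19% of entries did, and 2.71% of entries rose in all 4. The median log2 fold change of the 10 genes was -1.02 and -1.58 for PK-1 and -0.91 and -1.21 for Panc-1, whereas that of all these entries lay between 0 and 0.13. Both comparisons of a line use the same Control library and are not independent. Since the genes were chosen with earlier results of these data known, the counts beside these shares are a description and not a test.

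**Figure D1:**
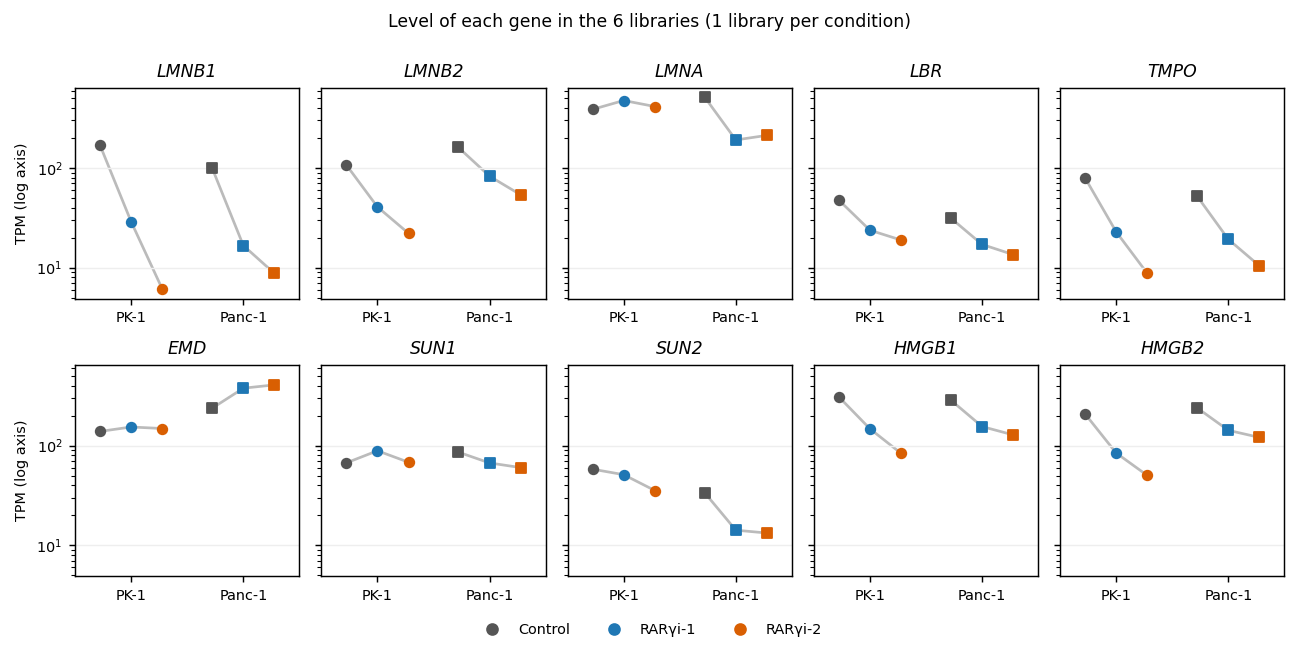
TPM of each of the 10 genes (y axis, logarithmic) in the PK-1 libraries (circles) and the Panc-1 libraries (squares), 1 library per point, with Control in grey, RARγi-1 in blue and RARγi-2 in orange. LMNB1 drops to 6.08 TPM in PK-1 (169.5 in Control) and to 8.72 TPM in Panc-1 (99.7 in Control), while EMD lies at or above its Control level in both lines.

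LMNB1, which encodes lamin B1 (Entrez 4001, chr5:126776623-126837020, plus strand, GRCh38), fell furthest of the 10 genes in every comparison. In PK-1 it was at 169.5 TPM in Control, 28.8 with RARγi-1 and 6.08 with RARγi-2. In Panc-1 it was at 99.7, 16.7 and 8.72 TPM. Every treated library lay below both Control libraries, and the gap was many times the spread. The log2 fold changes were -2.51 and -4.59 for PK-1 and -2.51 and -3.37 for Panc-1, which as plain ratios of TPM are levels 5.88, 27.9, 5.98 and 11.4 times lower than in Control. Counted from the lowest of the 12412 entries, LMNB1 held ranks 20, 3, 42 and 21. In both RARγi-2 libraries it had become the lowest of the 10 genes.

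LMNB2, which encodes lamin B2 (Entrez 84823, chr19:2427638-2456996, minus strand), also lay lower in every treated library, but by less. Its level was 108, 40.7 and 22.1 TPM in PK-1 and 161, 82.7 and 53.8 TPM in Panc-1, in the order Control, RARγi-1, RARγi-2. In PK-1 it fell, at log2 fold changes of -1.38 and -2.24. In Panc-1 it fell with RARγi-2 (-1.56), and with RARγi-1 the log2 fold change was -0.95, just short of 2-fold, and it was -1.04 once the libraries were rescaled by their median ratios. The ratio of LMNB2 to LMNB1 was 0.635, 1.41 and 3.63 for PK-1 and 1.61, 4.97 and 6.16 in Panc-1, so that LMNB2 was the more abundant B-type lamin RNA in 5 of the 6 libraries.

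LMNA (Entrez 4000, chr1:156082573-156140089, plus strand) had different courses in the lines. In PK-1 it was at 388, 476 and 414 TPM, with log2 fold changes of 0.30 and 0.10 that lay within the fold change spread of 0.41. In Panc-1 it was at 515, 191 and 213 TPM, both treated libraries lying well below Control, and the log2 fold changes were -1.42 and -1.27. These values cover lamin A and lamin C together, since the tables are per gene. Whether the lines differed was not tested. Beside the fall of LMNA in Panc-1, the summed level of the 5 epithelial markers there was 8413 TPM in Control, 1781 with RARγi-1 and 1482 with RARγi-2. In PK-1 it was 16834, 11210 and 11657 TPM. This sum is mostly keratin RNA, with KRT8, KRT18 and KRT19 at 3530, 3415 and 1454 TPM in the Panc-1 Control. The other markers did not share its course. EPCAM was at 13.4, 19.4 and 9.18 TPM in Panc-1, where CDH1 was at the floor. In PK-1 CDH1 was at 170, 270 and 385 TPM, and EPCAM at 578, 552 and 497 TPM. The part of these marker changes in the LMNA values was not tested.

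The 3 lamin genes together gave 665, 546 and 443 TPM in PK-1 and 775, 291 and 275 TPM in Panc-1. LMNB1 made up 25.5% of this sum in the PK-1 Control, 5.28% with RARγi-1 and 1.37% with RARγi-2, and 12.9%, 5.73% and 3.17% of it in Panc-1. In PK-1, where LMNA held its level, its share was 58.3%, 87.3% and 93.6%. The share of LMNA in Panc-1 was 66.4%, 65.8% and 77.3% and was about level between Control and RARγi-1, where all 3 genes were lower. LMNB2 supplied 16.2%, 7.45% and 4.98% of the sum in PK-1 and 20.7%, 28.5% and 19.5% for Panc-1. The ratio of LMNA to LMNB1 was thus 2.29, 16.5 and 68.2 for PK-1 and 5.17, 11.5 and 24.4 for Panc-1, higher in each treated library than in its Control.

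**Figure D2:**
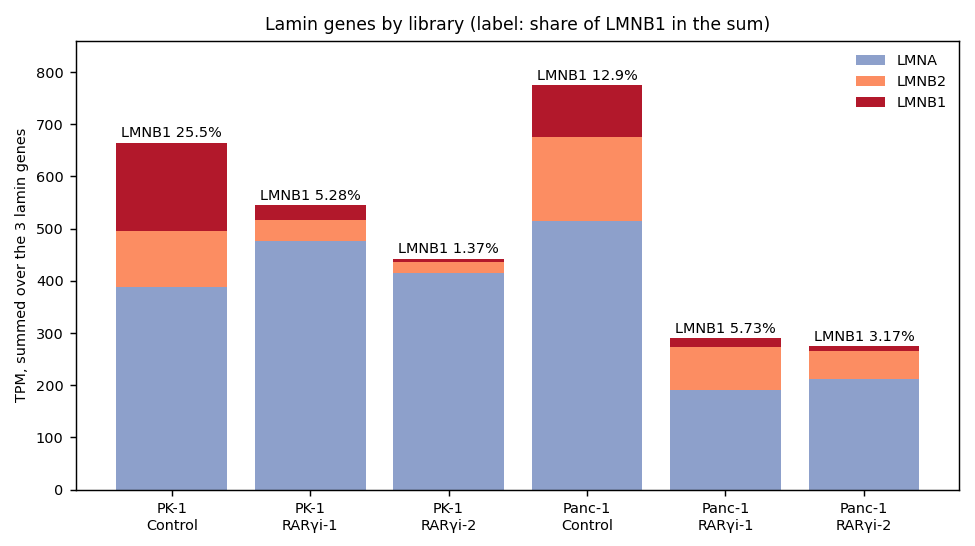
Stacked bars of TPM of LMNA, LMNB2 and LMNB1 (y axis, from 0) in each of the 6 libraries, with the share of LMNB1 in the sum printed above each bar. The sum is 775, 291 and 275 TPM in Panc-1 and 665, 546 and 443 TPM in PK-1, where the LMNA part stays between 388 and 476 TPM.

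TMPO, the gene of the LAP2 proteins that bind lamins and chromatin (Entrez 7112, chr12:98515512-98550379, plus strand), was the other gene that fell in all 4 comparisons. It was at 79.7, 22.9 and 8.74 TPM in PK-1 and at 52.1, 19.2 and 10.4 TPM in Panc-1. All treated libraries were below both Controls. The log2 fold changes were -1.76 and -3.05 for PK-1 and -1.39 and -2.22 for Panc-1. The LAP2 forms bound to the membrane and the one free in the nucleoplasm come from this gene and were not separated.

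LBR, the lamin B receptor, which also serves as a sterol reductase (Entrez 3930, chr1:225401502-225428925, minus strand), was at 47.7, 23.7 and 18.9 TPM in PK-1 and at 31.3, 17.1 and 13.5 TPM in Panc-1. Each treated library was lower than its Control. LBR fell with RARγi-2, at a log2 fold change of -1.29 for PK-1 and -1.16 for Panc-1. With RARγi-1 the log2 fold changes were -0.98 and -0.84, short of 2-fold but past the fold change spread, and the PK-1 value was -1.01 without a pseudocount.

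EMD, the gene of emerin, an inner nuclear membrane protein that needs lamin A to stay in place (Entrez 2010, chrX:154379197-154381523, plus strand), went the other way. It was at 139, 154 and 148 TPM in PK-1, with log2 fold changes of 0.15 and 0.10 inside the spread. In Panc-1 it was at 237, 377 and 407 TPM, both treated libraries above Control, and the log2 fold changes of 0.67 and 0.78 were past the spread but short of 2-fold. EMD was the only gene of the 10 above its Control in all 4 comparisons. The ratio of EMD to TMPO went from 1.74 to 6.72 and 17.0 in PK-1 and from 4.55 to 19.6 and 39.2 in Panc-1.

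SUN1 and SUN2 span the inner membrane and hold the nesprins of the outer membrane. SUN1 (Entrez 23353, chr7:816615-896435, plus strand) was at 66.9, 88.7 and 68.0 TPM in PK-1 and at 85.9, 66.9 and 60.1 TPM in Panc-1. It lay above its Control in PK-1 and below it in Panc-1, and its log2 fold changes of 0.40 and 0.02 in PK-1 were within the spread. Those in Panc-1, -0.36 and -0.51, were a little past it. SUN2 (Entrez 25777, chr22:38734725-38794143, minus strand) was at 57.9, 51.0 and 35.4 TPM in PK-1 and at 33.6, 14.1 and 13.2 TPM in Panc-1. SUN2 fell in Panc-1, at log2 fold changes of -1.19 and -1.28, and its values in PK-1 were -0.18, within the spread, and -0.70. SUN1 was the more abundant in each library, at 1.15, 1.74 and 1.92 times SUN2 in PK-1 and 2.56, 4.73 and 4.54 times in Panc-1.

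**Figure D3:**
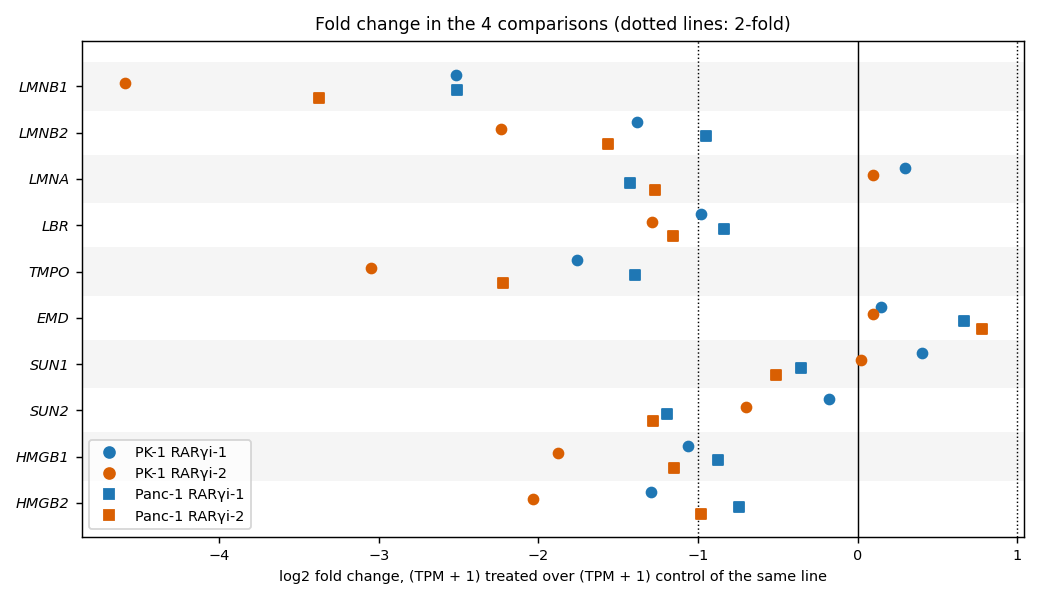
Difference in log2 (TPM + 1) from the Control of the same line (x axis) for each of the 10 genes, in PK-1 (circles) and Panc-1 (squares) with RARγi-1 (blue) and RARγi-2 (orange). LMNB1 lies between -4.59 and -2.51 and TMPO between -3.05 and -1.39, left of the dotted 2-fold line throughout, while LMNA lies near 0 in PK-1 and at -1.42 and -1.27 in Panc-1.

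HMGB1 (Entrez 3146, chr13:30456704-30617597, minus strand) was at 309, 147 and 83.5 TPM in PK-1 and at 286, 155 and 128 TPM in Panc-1. Every treated library was below both Controls. It fell in PK-1, at log2 fold changes of -1.06 and -1.88, and with RARγi-2 in Panc-1, at -1.15. The value with RARγi-1 in Panc-1 was -0.88. HMGB2, a close relative made mostly by dividing cells (Entrez 3148, chr4:173331695-173335125, minus strand), was at 208, 84.3 and 50.1 TPM in PK-1 and at 239, 142 and 121 TPM in Panc-1. It fell in PK-1, at -1.30 and -2.04. In Panc-1 its log2 fold changes were -0.74 and -0.98, both past the spread and short of 2-fold. The ratio of HMGB1 to HMGB2 was at most 1.75 in the PK-1 libraries and lay between 1.06 and 1.20 in Panc-1, so the pair moved by similar factors.

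The levels in the Control libraries set these changes in context. In PK-1 the order from high to low was LMNA, HMGB1, HMGB2, LMNB1, EMD, LMNB2, TMPO, SUN1, SUN2 and LBR. Of these neighbours, LMNA and HMGB1 did not differ beyond the spread, HMGB1 and HMGB2 did, as did LMNB2 and TMPO, and no other adjacent pair did. In Panc-1 the order was LMNA, HMGB1, HMGB2, EMD, LMNB2, LMNB1, SUN1, TMPO, SUN2 and LBR, and there only HMGB1 to EMD, LMNB1 with SUN1, and SUN2 with LBR ran together within the spread. The spread was measured for the same entry between libraries and not between genes of 1 library. These orders are therefore descriptions, and close gaps such as that of LMNB2 and TMPO in PK-1 carry no call. LMNB1 was lower in the Panc-1 Control than in the PK-1 Control by a log2 difference of -0.76, and EMD was higher by 0.77.

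Other genes of the nuclear envelope and of the HMG family were described by lists. Over 8 lists, 79 genes were above the floor in at least 1 library, of which 13 and 25 fell and 7 and 7 rose in PK-1. In Panc-1, 6 and 10 fell and 2 and 3 rose. Their median log2 fold changes were -0.27 and -0.41 for PK-1 and -0.11 and -0.18 for Panc-1, closer to 0 than those of the 10 genes above. Over the entries of at least 5 TPM in a library, 5.2% and 13.5% fell and 9.91% and 12.9% rose in PK-1. In Panc-1, 6.51% and 12.0% of these entries fell and 7.86% and 9.02% rose. The listed genes only had to pass the floor. Over all entries above the floor, 4.42% and 11.3% fell and 8.25% and 10.9% rose in PK-1. For Panc-1 these shares were 5.4% and 9.98% for falls and 6.62% and 7.56% for rises. The falls of the listed genes in Panc-1 were thus near both sets of shares. Their rises lay below both sets in Panc-1 and with RARγi-2 in PK-1, and near them with RARγi-1 in PK-1. Genes at the floor in Control could not fall.

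Among 11 detected partners of the lamina and inner membrane, 2 and 3 fell in PK-1 while 1 and 2 did in Panc-1, and none rose. NRM, the gene of nurim, a membrane protein of the envelope, fell in all 4 comparisons. It was at 45.2, 11.2 and 4.89 TPM in PK-1 and at 28.2, 7.21 and 2.71 TPM in Panc-1, with log2 fold changes of -1.92, -2.97, -1.83 and -2.98. All treated libraries lay below both Controls. TMEM201, named here after its values were seen, gave -1.73, -3.00, -0.96 and -1.04 and encodes SAMP1, another inner membrane protein. ANKLE2, LEMD2 and LEMD3, relatives of emerin with a LEM domain and also named after their values were seen, stayed between -0.39 and 0.49. Of the 5 genes that process the lipid anchor of lamins, ICMT, a methyltransferase of this pathway, fell in PK-1 and with RARγi-2 in Panc-1, at -1.14, -1.76, -0.90 and -1.26. None of the other 4, among them ZMPSTE24, the protease that matures lamin A, passed 2-fold. ICMT and ZMPSTE24 were named after their values were seen.

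The other LINC complex genes, nesprins and further SUN-domain genes, numbered 6 above the floor, of which 3 and 4 rose in PK-1, 1 and 1 rose in Panc-1, and none fell. SYNE1 and SUN3 lay at the floor in both Controls, so they could not fall. The same held for SYNE3 against the PK-1 Control and for SYNE4 against the Panc-1 Control. Among the genes that rose in PK-1, only SPAG4 started above the floor, at 6.42 TPM in Control. SYNE1, SUN3, SYNE4 and SPAG4 were named after their values were seen. SYNE3, the gene of nesprin-3, which links to intermediate filaments, rose in all 4 comparisons. In PK-1 it was at the floor in Control and at 5.89 and 6.61 TPM in the treated libraries, and in Panc-1 it was at 3.01, 8.93 and 8.005 TPM. Its log2 fold changes were 1.79, 1.93, 1.31 and 1.17, the PK-1 values being lower limits because Control was at the floor. These are low levels, under 10 TPM in every library. SYNE3 has repeated entries, and once they were summed it no longer passed 2-fold in all 4.

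Nuclear pore genes were taken as scaffold and as peripheral genes. Of 16 detected scaffold and transmembrane nucleoporins, 6 and 12 fell in PK-1, while Panc-1 had 3 and 3, with median log2 fold changes of -0.80, -1.56, -0.56 and -0.64. The shares of entries of at least 5 TPM that fell were 5.2%, 13.5%, 6.51% and 12.0% in the same order. NDC1, a transmembrane nucleoporin, fell in all 4, with 61.4, 14.3 and 8.32 TPM in PK-1 and 53.7, 21.0 and 18.6 TPM in Panc-1. NUP210, another transmembrane nucleoporin, also fell in all 4, from 30.4 to 12.6 and 5.98 TPM and from 25.3 to 10.9 and 5.55 TPM. SEC13, which also serves in the COPII vesicle coat, rose with RARγi-2 in both lines, at log2 fold changes of 1.20 and 1.47, and was named after its values were seen. Of 13 FG and peripheral nucleoporins, 2 fell with RARγi-2 in PK-1, near the 13.5% of all entries, and none in the other comparisons. Their medians were -0.36, -0.68, -0.11 and -0.03. NUP107, a scaffold protein that every cell uses, was listed at the floor in all 6 libraries, so a listing at the floor does not show that a gene is silent. It was named after its values were seen.

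Among 11 other detected HMG genes, 3 and 6 fell in PK-1, while 1 and 3 did in Panc-1. With RARγi-1 in PK-1, 1 gene rose. Of the entries of at least 5 TPM, 5.2%, 13.5%, 6.51% and 12.0% fell, taking the comparisons in that order. The share that rose with RARγi-1 in PK-1 was 9.91%. The 1 fall of 11 with RARγi-1 in Panc-1 and the 1 rise of 11 were near these shares. HMGN3, which encodes a protein that binds nucleosomes, fell in all 4 comparisons. Its level was 40.7, 14.3 and 10.1 TPM in PK-1 and 65.9, 25.6 and 13.3 TPM in Panc-1, with log2 fold changes of -1.45, -1.90, -1.33 and -2.22. HMGB3, the nearest relative of the HMGB pair in the list, gave -0.57, -1.53, -0.81 and -1.20. HMGA1, the most abundant gene of the list, was at 1068 to 1251 TPM in PK-1 and 1374 to 2081 TPM in Panc-1 and passed 2-fold in no comparison. HMGB3 and HMGA1 were named after their values were seen.

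**Figure D4:**
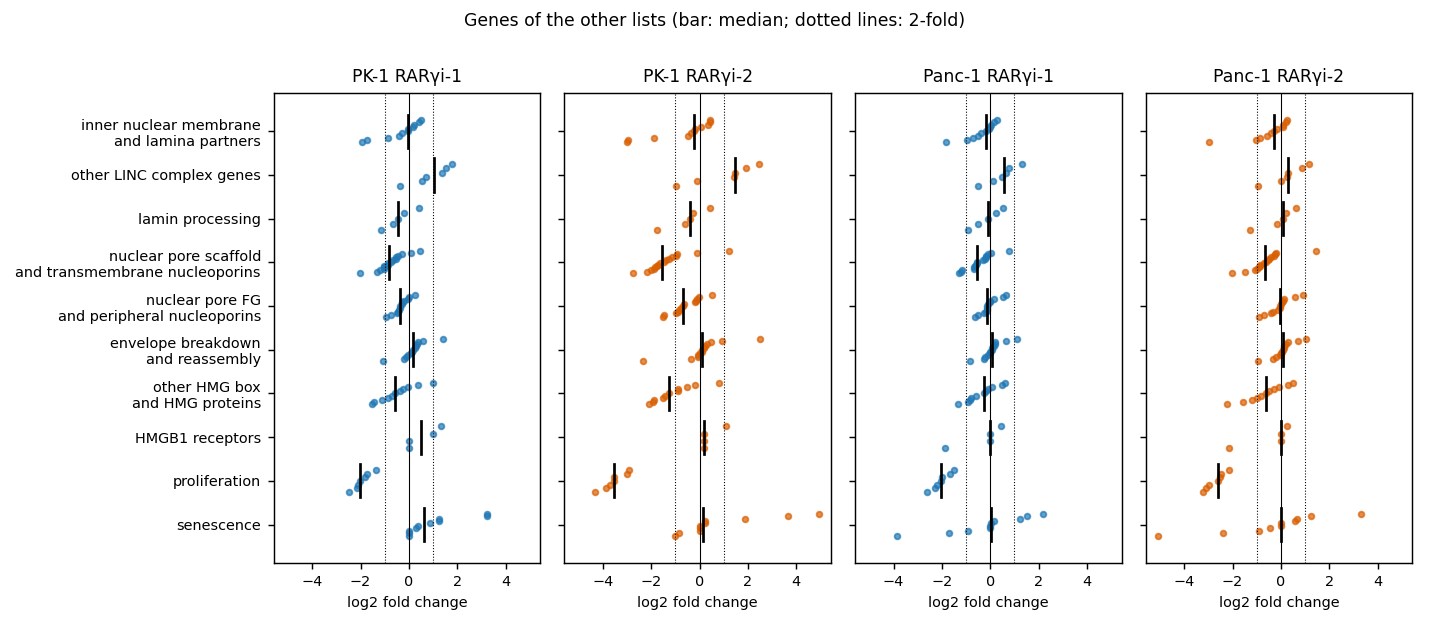
Log2 fold change of each gene above the floor (points) of the 10 lists of envelope, HMG, proliferation and senescence genes (rows), with the median of each list as a black bar, in the 4 comparisons (panels). All 7 proliferation genes lie left of the dotted 2-fold line in each panel, and the medians of the scaffold nucleoporins and the other HMG genes lie between -1.56 and -0.26.

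Cell cycle genes fell in the same comparisons as LMNB1 and TMPO. All 7 proliferation genes of the list fell in all 4 comparisons, which 2.19% of entries did. Their median log2 fold changes were -2.001 and -3.54 for PK-1 and -2.03 and -2.61 for Panc-1. MKI67, a marker of cycling cells, was at 41.8, 9.69 and 2.71 TPM in PK-1, and 93.5, 18.4 and 9.19 TPM in Panc-1. TOP2A, the topoisomerase of dividing cells, went from 243 to 54.2 and 11.1 TPM and from 127 to 27.3 and 15.2 TPM. PCNA, MCM2, CDK1, CCNB1 and CCNA2, genes of DNA replication and of the mitotic kinase, gave log2 fold changes between -3.87 and -1.34. The part of cell cycle state in the LMNB1, TMPO and HMGB2 values was not tested.

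Of 15 genes often followed in senescent cells, 10 were above the floor, of which 4 and 3 rose in PK-1, while Panc-1 had 3 and 2. In PK-1 0 and 1 fell, and 2 and 2 fell in Panc-1. Over the entries of at least 5 TPM in a library, 9.91% and 12.9% rose and 5.2% and 13.5% fell in PK-1. In Panc-1 the shares were 7.86% and 9.02% for rises and 6.51% and 12.0% for falls. CDKN1A, the gene of the kinase inhibitor p21, rose in all 4 comparisons, with 36.1, 349.9 and 468 TPM in PK-1 and 86.1, 249.8 and 204 TPM in Panc-1. MMP1, a collagenase, also rose in all 4, from 37.7 to 362 and 1180 TPM and from 11.4 to 55.9 and 123 TPM. No cytokine gene of the list rose in all 4 comparisons. CCL2 fell in Panc-1, where it was at 112, 6.79 and 2.31 TPM, as did CXCL1 at 18.6, 5.04 and 2.69 TPM, and both were at the floor in PK-1. IL1B in PK-1 was at 239 TPM in Control, 310 with RARγi-1 and 117 with RARγi-2, and IL1A at 101, 240 and 117 TPM, while both were at the floor in Panc-1. In PK-1, IL1A rose with RARγi-1 at a log2 fold change of 1.25, and IL1B fell with RARγi-2 at -1.03. CXCL8 rose with RARγi-2 in PK-1 at a log2 fold change of 1.86, from 1.69 to 8.77 TPM. IGFBP3 rose with RARγi-1 in Panc-1 at 1.22, from 1.95 to 5.84 TPM. Both rises started near the floor. In PK-1, IGFBP3 was at 113, 137 and 133 TPM and did not pass 2-fold. GLB1, the lysosomal galactosidase behind the usual stain, ranged from -0.84 to 0.02. CDKN2A, CDKN2B, IL6, MMP3 and GDF15 were listed at the floor in all 6 libraries. The paper lists a copy number alteration of CDKN2A in both lines, and its part in the CDKN2A values was not tested.

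The entries whose 4 log2 fold changes lay nearest to those of a gene were found by the root mean square difference over the 12412 entries. Nearest to LMNB1 were TOP2A (difference 0.34), ANLN, the gene of anillin of the cleavage furrow (0.41), and TYMS, thymidylate synthase (0.41). Nearest to HMGB2 were SAMHD1, a nucleotide triphosphohydrolase (0.030), DDX11, a DNA helicase (0.055), and CDCA7L (0.087). Nearest to LMNA were SPA17 (0.12), the actin regulator INF2 (0.12) and the long noncoding RNA NKILA (0.14). These differences rest on 4 values that share 2 Control libraries and are descriptions.

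Some values could hold reads of neighbours, since how reads were assigned to overlapping genes is not given in the sources used here. TMPO overlaps TMPO-AS1 on the opposite strand (chr12:98512973-98516422), and the TMPO stretch printed above lies inside it. TMPO-AS1 was at 8.77 and 1.18 TPM in the PK-1 Control and RARγi-1 libraries, at 9.57 and 1.37 TPM in those of Panc-1, and at the floor with RARγi-2 in both lines. It fell in all 4 comparisons, with log2 fold changes from -2.40 to -2.16, those with RARγi-2 being lower limits. LMNB2 overlaps TIMM13, which gave -0.97, -1.18, -0.10 and -0.08. SUN2 overlaps DNAL4, which rose in all 4 comparisons at 1.31, 1.73, 1.38 and 1.84, and SUN1 overlaps GET4, which stayed between 0.27 and 0.74. These neighbours were named after their values were seen. For HMGB1, 48 pseudogene entries were listed, for TMPO 2 and for HMGB2 1, all at the floor in every library. A copy at the floor could still hold reads under 1 TPM. How reads shared with a copy were counted is therefore not known. LMNB1, LMNA, LBR, EMD and HMGB2 overlap no other annotated gene.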

How the data were processed

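RNA-seq libraries of PK-1 and Panc-1 cells (Control, RARγi-1, RARγi-2; 1 library each) were made with a stranded mRNA kit. The authors deposited log2 TPM values per gene entry, with values under 1 TPM raised to 1 TPM. The submitters' processing notes name hg38; the aligner, annotation and strand use are not given in the sources used here. TPM keeps no depth. Log2 fold changes were taken on (TPM + 1) against the Control of the same line with Python 3.11.15, numpy 2.4.6 and pandas 2.3.3. Simulated data with large planted changes and little noise checked the arithmetic only, and not the precision of the values. For a repeated symbol the entry with the highest mean was used. The background was the 12412 entries that reached 5 TPM in any library. The spread was the median absolute deviation, times 1.4826, of the log2 difference between the treated libraries of a line, divided by the square root of 2. No test was run, since each condition has 1 library.

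Genes named are the 10 genes, listed genes past 2-fold one way in all 4 comparisons (at most 8 per list), the proliferation and senescence lists, and the 3 entries nearest to LMNB1, HMGB2 and LMNA; others are marked as named after their values were seen, apart from cell type markers. The values of 1 gene of the senescence list are not reported here. The genes and lists were chosen with earlier results of these data known. Gene positions are from GENCODE 29 (GRCh38). Alternatives were no pseudocount, a pseudocount of 0.1 TPM, rescaling by median ratios, summing repeated symbols, thresholds of 1.5-fold and 3-fold, and other filters on low values.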

Additional observations from a re-analysis of the deposited data

Results flagged for a closer look

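LMNA and SUN1 had changes of opposite direction in the lines, and the difference was not tested. The log2 fold changes of LMNA were 0.30 and 0.10 for PK-1 and -1.42 and -1.27 for Panc-1, RARγi-1 first. Those of SUN1 were 0.40 and 0.02 for PK-1 and -0.36 and -0.51 for Panc-1. For both genes the PK-1 values lay within the fold change spread of 0.41.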

How the results depend on the processing

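The log2 fold changes of the 10 genes kept their sign under each alternative pseudocount, scaling and treatment of repeated symbols. Of 40 values, 39, 39 and 38 stayed on the same side of 2-fold without a pseudocount, with a pseudocount of 0.1 TPM and after rescaling, and the largest shift was 0.21. LBR with RARγi-1 in PK-1 passed 2-fold under all 3 (-1.01, -1.005 and -1.08), and rescaling did the same for LMNB2 with RARγi-1 in Panc-1 (-1.04). Under the same 3 settings and at 1.5-fold, 2 lamina partners in place of 1 fell in all 4 comparisons. No LINC complex gene rose in all 4 (0 in place of 1) once rows of a repeated symbol were summed or at 3-fold. The counts follow the threshold by construction. At 1.5-fold, 8 of the 10 genes in place of 4 fell with RARγi-1 in Panc-1 (14.3% of entries), 1 and 1 rose in Panc-1 (EMD, against 19.4% and 18.9% of entries), and 6 in place of 2 fell in all 4 (5.76% of entries). At that threshold, the genes that fell in all 4 were 1 for lamin processing, 6 for the pore scaffold, 1 for FG nucleoporins, 1 for envelope breakdown and 3 for other HMG genes, and 2 breakdown genes rose. At 3-fold, 2 of the 10 genes fell in PK-1 with RARγi-1 (1.68% of entries), 1 and 2 in Panc-1 (2.4% and 5.37%), and 1 (LMNB1) in all 4 (0.709% of entries), and 0 pore scaffold, 0 other HMG and 0 breakdown genes and 1 senescence gene kept a call in all 4. Depth is unknown, and no result has a replicate.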

Other observations

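Envelope breakdown and reassembly genes mostly held their level. Of 13 genes above the floor, VRK1, a kinase that releases chromatin from the envelope, fell in PK-1 at log2 fold changes of -1.05 and -2.35 and gave -0.83 and -0.93 in Panc-1; it was named after its values were seen. LPIN2, a phosphatidate phosphatase of the lipin family, rose in all 4 comparisons, with 14.4, 40.3 and 85.3 TPM in PK-1 and 15.2, 34.1 and 32.4 TPM in Panc-1. No other gene of the list passed 2-fold, and the medians lay between 0.06 and 0.17.

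Of 6 genes for proteins that bind HMGB1 outside the nucleus, 4 were above the floor, and TLR2 and CXCR4 were listed at the floor in all 6 libraries. In PK-1, 2 rose with RARγi-1 and 1 with RARγi-2, and in Panc-1 1 fell with each inhibitor. Over the entries of at least 5 TPM in a library, 9.91% and 12.9% rose in PK-1 and 6.51% and 12.0% fell in Panc-1. AGER, which encodes RAGE, was between 2.54 and 6.09 TPM and rose with RARγi-1 in PK-1, from 2.54 to 6.09 TPM, just past 2-fold on the (TPM + 1) scale. The genes of this list were named after their values were seen. CD24 went in opposite directions in the lines. It was at 14.9, 39.0 and 33.0 TPM in PK-1 and at 211, 57.3 and 47.5 TPM in Panc-1, and the difference between the lines was not tested.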
